A study of Mus musculus with 6 samples.

Results

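Mdm2 and 9 other direct target genes of the transcription factor p53 were followed in mouse embryonic fibroblasts (MEFs), connective tissue cells grown from embryos, with and without functional Pax7. The 10 genes (Mdm2, Cdkn1a, Ccng1, Zmat3, Phlda3, Perp, Eda2r, Aen, Trp53inp1 and Plk2) were taken by name as known p53 targets from the 22180 genes measured, and all 10 had a probe set that names 1 gene. Mdm2 itself was chosen by its measured difference between the genotypes, called higher in the knockout in an earlier analysis of these arrays, so its value and those of the other members in this contrast are given as a description, with no p-value. The 6 arrays were hybridized with total RNA from cells labelled Pax7+/+ (wild type, 3 arrays) and Pax7-/- (knockout, 3 arrays), both on an F1 cross of C57Bl6N and 129Sv. In both genotypes the cells were harvested once confluent, and no treatment that damages DNA is named. Each genotype has biological replicates 1 to 3. The labels do not say whether these came from separate embryos or cultures, so p-values measure the spread between these samples, which may be technical. Signals are on the log2 scale throughout, and each difference is the knockout signal less the wild type signal.

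p53 is a sequence-specific transcription factor that cells keep scarce. Its own target Mdm2 encodes the ubiquitin ligase that marks p53 for degradation, so Mdm2 is both a readout of p53 activity and the brake on it. In cultured embryonic fibroblasts the pathway is known for its part in growth arrest and senescence, with Cdkn1a as the main arrest gene. Mdm2 has an upstream promoter and an internal one in its first intron, and it is the internal one that p53 is known to use.

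p53 binds DNA as a tetramer at a pair of 10-base units, here called p53 decamers. The RefSeq promoter windows (build GRCm38.p6, from 250 bases before to 50 after an annotated start) were searched for this consensus, which reads the same on both strands. Windows were at hand for 7 of the 10 members, and 4 of them held at least 1 match: Mdm2, Cdkn1a, Ccng1 and Aen. A match was found in 9.55% of the 27025 genes with a window, in 6 of 24 other p53 targets and in 2 of 24 p53 regulators. The sequences below show where these matches lie in the members, with the decamer in capitals. The first is the whole stretch of 250 bases upstream of the Mdm2 start (chr10:117710759-117711008, minus strand), with 1 decamer that begins 186 bases before the start.
Mdm2: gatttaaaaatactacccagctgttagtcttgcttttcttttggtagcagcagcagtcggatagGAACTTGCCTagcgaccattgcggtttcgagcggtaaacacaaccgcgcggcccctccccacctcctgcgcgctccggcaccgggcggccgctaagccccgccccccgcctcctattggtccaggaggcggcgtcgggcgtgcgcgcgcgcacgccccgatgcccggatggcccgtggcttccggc
The Cdkn1a stretch (chr17:29090901-29090942, plus strand) lies before the more upstream of its 2 annotated starts, which are 2790 bases apart. It holds 2 decamers with 12 bases between them, and a pair at most 13 bases apart occurred in 0.074% of genes.
Cdkn1a: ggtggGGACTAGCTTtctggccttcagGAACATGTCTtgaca
In Ccng1 (chr11:40755452-40755481, minus strand) the decamer begins 185 bases before the start, and in Aen (chr7:78895927-78895956, plus strand) 121 bases before the more downstream of 2 starts. The same Aen decamer begins 10 bases after the more upstream start.
Ccng1: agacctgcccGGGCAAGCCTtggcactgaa
Aen: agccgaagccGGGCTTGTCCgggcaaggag
The windows of Phlda3, Eda2r and Plk2, and that of the downstream Cdkn1a start, held no match, which says only that these letters are not in those windows. The Mdm2 window covers the upstream promoter and not the internal one. A match is a description of the sequence, and binding was not measured.

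The samples carry a cell type label that reads ESCs, while their titles and source names say fibroblasts. All 8 fibroblast markers (Col1a1, Thy1, Pdgfra and others) lay above background on every array, against 1 or 2 of 8 pluripotency markers, which were Pou5f1 and Nanog, both close to it. As background level of an array served the signal below which 95% of 1390 receptor genes of smell and pheromone sensing lay (4.63 to 5.44). Of 9 epithelial markers 3 to 6 were above it, of 8 macrophage markers 3 to 6 and of 6 endothelial markers 0 to 2. Above it on all 6 arrays were the epithelial markers Krt8, Krt18 and Epcam and the macrophage markers Csf1r, C1qa and Fcgr3. The endothelial marker Cdh5 was above it on 5 arrays. Among those above it on no array were Krt14, Dsp, Trp63, Ptprc, Pecam1 and Kdr. For replicates 1, 2 and 3 the summed epithelial signal (linear scale) was 459, 414 and 254 in wild type and 425, 443 and 279 in the knockout. It was lower in the knockout in replicate 1 and higher in replicates 2 and 3. Both replicate 3 arrays stood apart: they correlated at 0.992 with each other and at 0.814 to 0.844 with the other 4, which correlated at 0.988 to 0.990 among themselves. Each genotype holds 1 of them, so differences are read within replicate numbers, and the replicate number was fitted as a block where a test is given. Of the 8 fibroblast markers, 4 were lower and 1 higher in the knockout in all 3 pairs, beside 13.8% of all genes each way. With the block limma called 0 of them, beside 0.0766% of all genes. At an unadjusted p under 0.05 in that fit 3 were lower and 0 higher, beside 3.45% and 3.28% of all genes. The markers were not tested as a set.

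Mdm2 was higher in the knockout in each of the 3 replicate pairs. The wild type arrays of replicates 1, 2 and 3 read 7.09, 7.30 and 8.47, and the knockout arrays, in the same order as in all values that follow, 8.11, 7.95 and 9.22. Every knockout array thus lay above the wild type array of the same number, while knockout replicates 1 and 2 lay below wild type replicate 3, so that the genotypes overlapped on this scale, as they did for each of the 10 members (0 were higher without overlap, beside 0.667% of all genes). The pair differences were 1.02, 0.65 and 0.76, with a mean of 0.81 (limma SE 0.10 with the block and 0.51 without, n = 3 pairs; 1.75-fold). Counted from the highest mean difference, Mdm2 was at rank 4 of 22180 genes. Without the replicate 1, 2 or 3 pair the mean was between 0.71 and 0.89, but limma then called 0 genes as higher without replicate 2 or without replicate 3, in place of 2. Leaving out a single array unbalances replicate 3 between the genotypes: the difference was 1.23 when the wild type array of replicate 3 was left out and 0.41 when the knockout array was. As a percentile among the genes of each array, a scale on which replicate 3 did not stand apart for this gene, Mdm2 lay at 90.8, 91.3 and 90.5 in wild type and at 96.2, 95.5 and 95.7 in the knockout, with no overlap. On that scale 1.74% of all genes were higher without overlap.

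**Figure D1:**
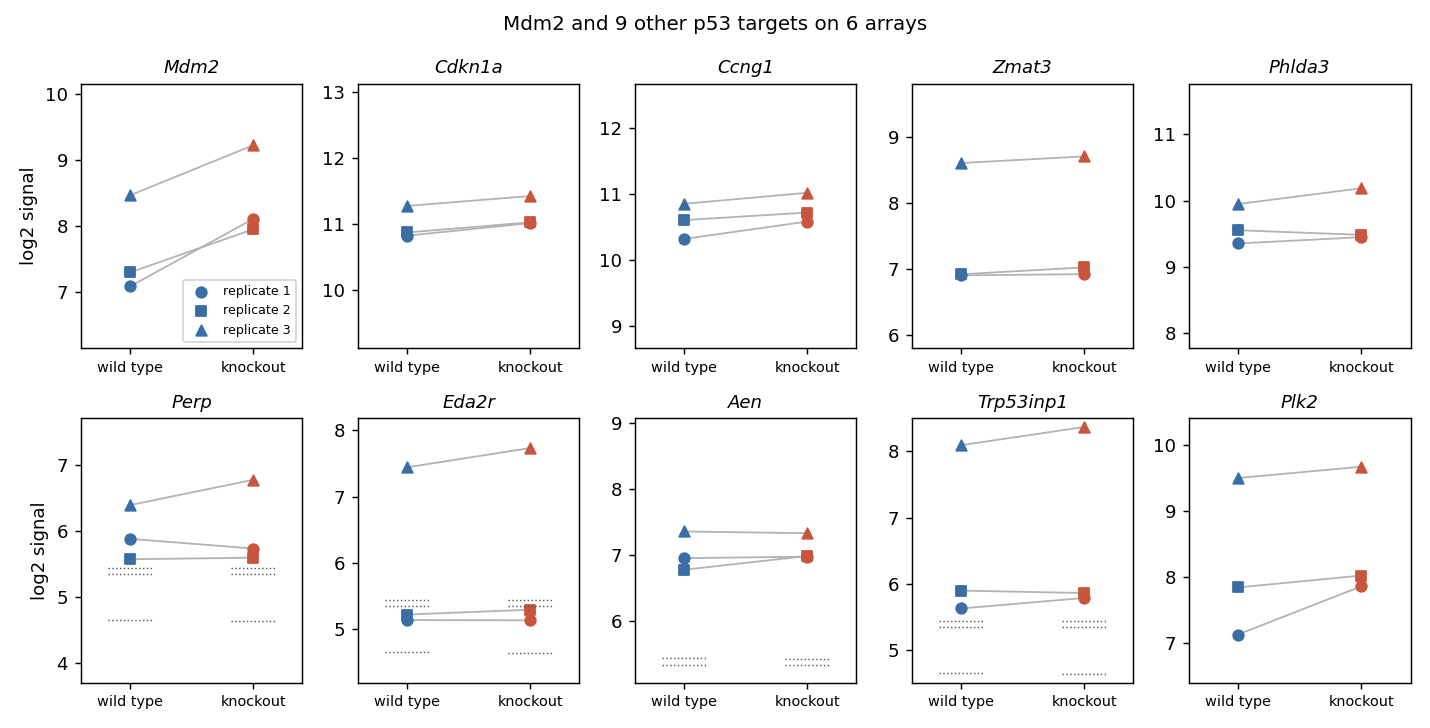
Log2 signal of each of the 10 genes (vertical axes, each spanning 4 log2 units) in wild type (blue) and knockout (red); marker shapes are replicates 1 to 3, grey lines join equal numbers, and dotted ticks are the background levels where they fall in range. All 3 Mdm2 lines climb, from 7.09, 7.30 and 8.47 to 8.11, 7.95 and 9.22, while the lines of most other members run nearly level and the replicate 3 triangles lie above the other markers in every panel.

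The other targets differed by much less. The mean differences of the 9 genes ran from 0.07 to 0.36, all above 0, and apart from Plk2 the largest was 0.18. Their median was 0.12, against -0.00 over all genes tested and a range of -0.21 to 0.20 between the 5th and 95th percentiles of all genes. Without the replicate 3 pair the median of the 9 was 0.061, and with 1 array left out, which unbalances replicate 3, it ran from -0.22 without the knockout array of replicate 3 to 0.31 without the wild type array. Of their 27 gene-by-pair differences 22 were above 0, and 1, that of Plk2 in replicate 1, reached the smallest Mdm2 difference of 0.65. The 27 values come from the same 3 pairs of arrays and are not independent, and the share above 0 over all genes was not computed. The medians of all genes in the 3 pairs were 0.015, -0.018 and 0.001. Of the 10 members 5 were higher in all 3 pairs (Mdm2, Cdkn1a, Ccng1, Zmat3 and Plk2), 5 had mixed signs and 0 were lower in all 3; 13.8% of all genes were higher in all 3 pairs. With the replicate block, limma called 1 of the 10 members as higher, Mdm2 itself, beside 0.00902% of all genes (0.0676% were called lower, and no member); since Mdm2 was chosen for that call, nothing is read from the count. Without the block it called 0 members and 0% of genes. Whether the difference of Mdm2 exceeds that of each other target was not tested.

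Among the genes of cell cycle control, Cdkn1a, the cyclin-dependent kinase inhibitor p21, was at 10.82, 10.87 and 11.27 in wild type and at 11.01, 11.03 and 11.42 in the knockout. Each knockout array was slightly above its partner, by 0.19, 0.15 and 0.15 (mean 0.16, limma SE 0.09 with the block; 1.12-fold). These pair differences were the most even of the 10 members (SD 0.02), while the mean difference was at rank 1905 of all genes. Ccng1, which encodes the atypical cyclin G1 that binds protein phosphatase PP2A, was at 10.32, 10.60 and 10.85 in wild type and at 10.58, 10.72 and 11.02 in the knockout. Its differences of 0.26, 0.11 and 0.17 had a mean of 0.18 (SE 0.09; 1.13-fold). In percentiles within each array Ccng1 was the only member besides Mdm2 whose genotypes did not overlap. Both genotypes lay within a narrow span (99.55 to 99.63 in wild type and 99.66 to 99.70 in the knockout). In these percentiles 1.74% of all genes were higher in the knockout without overlap.

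Plk2, a polo-like kinase of centriole duplication that also responds quickly to serum, had the second largest mean difference among the members. It was at 7.14, 7.85 and 9.50 in wild type and at 7.86, 8.03 and 9.67 in the knockout. The mean of 0.36 (SE 0.12) rested on uneven pair differences of 0.73, 0.18 and 0.17, and was 0.18 without the replicate 1 pair. The wild type array of replicate 1 was the lowest, while knockout replicates 1 and 2 lay close together. By the distance between the 3 pair differences of a gene and those of Mdm2, Plk2 ranked 77th of 22179 genes, ahead of Ccng1 (929th) and Cdkn1a (1355th). These ranks depend on how replicates 1 and 2 are numbered, and the labels do not pair them across genotypes. Deviations from the genotype means correlated at 0.920 and 0.895 for equal numbers and at 0.898 and 0.910 for unequal ones. Ranks under the exchanged numbering were not computed.

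**Figure D2:**
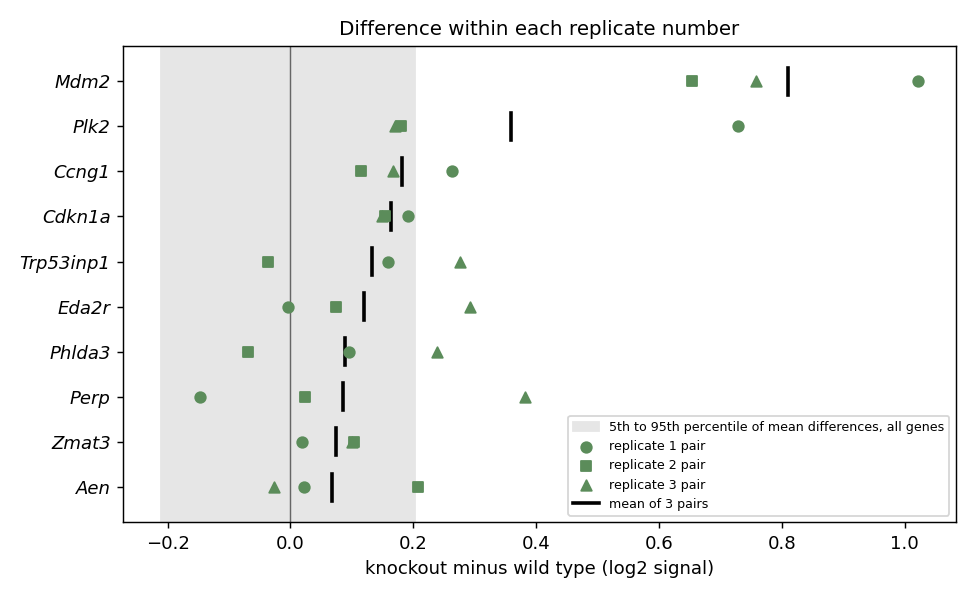
Knockout minus wild type difference in log2 signal (horizontal axis) for each member, ordered by its mean; green markers are the 3 replicate pairs, black bars their mean, and the grey band spans the 5th to 95th percentile of the mean differences of all genes (-0.21 to 0.20). The 3 Mdm2 pairs lie between 0.65 and 1.02, right of every other marker except the replicate 1 pair of Plk2 at 0.73, and only the Mdm2 and Plk2 means lie outside the band.

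Phlda3, Perp and Aen each had pairs of both signs. Phlda3, which encodes a small protein that restrains the kinase Akt, was at 9.35, 9.55 and 9.95 in wild type and at 9.45, 9.48 and 10.19 in the knockout, with differences of 0.10, -0.07 and 0.24. Perp, a membrane protein of desmosomes and an apoptosis effector, was at 5.88, 5.57 and 6.39 in wild type and at 5.73, 5.59 and 6.77 in the knockout, with differences of -0.15, 0.02 and 0.38. Aen, an exonuclease active in apoptosis, was at 6.96, 6.78 and 7.36 in wild type and at 6.98, 6.99 and 7.33 in the knockout, with differences of 0.02, 0.21 and -0.03. Each of these genes thus had a pair in which the knockout array lay below its partner, in replicate 2 for Phlda3, replicate 1 for Perp and replicate 3 for Aen.

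Eda2r, a receptor of the tumour necrosis factor family that binds ectodysplasin A2, was above background only on the replicate 3 arrays, at 7.44 in wild type and 7.73 in the knockout. On replicates 1 and 2 it lay at 5.13 and 5.21 in wild type and at 5.13 and 5.29 in the knockout, so that its comparison rests on the 1 pair that measured it, with a difference of 0.29. Trp53inp1, a nuclear protein that promotes p53 phosphorylation and autophagy, was at 5.63, 5.90 and 8.09 in wild type and at 5.78, 5.86 and 8.37 in the knockout, near background on replicates 1 and 2. Its differences were 0.16, -0.04 and 0.28. Zmat3, which encodes a zinc finger protein that binds RNA, was at 6.91, 6.92 and 8.61 in wild type and at 6.92, 7.03 and 8.71 in the knockout. Its differences of 0.02, 0.10 and 0.10 shared a sign but were small. A further probe set that names Zmat3 together with 4930429B21Rik gave 0.50, -0.37 and -0.18, so that the 2 probe sets disagree in sign in replicates 2 and 3.

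All 10 members had a higher log2 signal on replicate 3 than on the mean of replicates 1 and 2, in both genotypes; this held for 42.8% of all genes and for 69.4% of the 8404 genes above background on all arrays. The excess was 2.33 in wild type and 2.55 in the knockout for Trp53inp1, 2.27 and 2.53 for Eda2r, 2.01 and 1.73 for Plk2, and 1.69 and 1.73 for Zmat3. For Mdm2 it was 1.27 and 1.19, above its mean difference between genotypes of 0.81. In Ccng1 and Cdkn1a it was 0.39 and 0.37, and 0.43 and 0.40. In all 10 members the excess was larger, in both genotypes, than the mean difference between the genotypes. The median over the 10 members was 0.97 in wild type and 1.15 in the knockout, against 0.83 and 0.80 over the genes above background on all arrays. In percentiles, which a rescaling of an array leaves unchanged, 6 members stood higher on replicate 3 in both genotypes and 4 stood lower in both. No share over all genes was computed for this count. The same holds for the count of members whose excess passed their genotype difference, so neither sets the members apart from other genes. Eda2r went from 44.8 and 47.1 to 80.0 in wild type, whereas Aen went from 89.4 and 85.8 to 79.0. What sets replicate 3 apart is not given in the labels, and its part in these values was not tested.

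**Figure D3:**
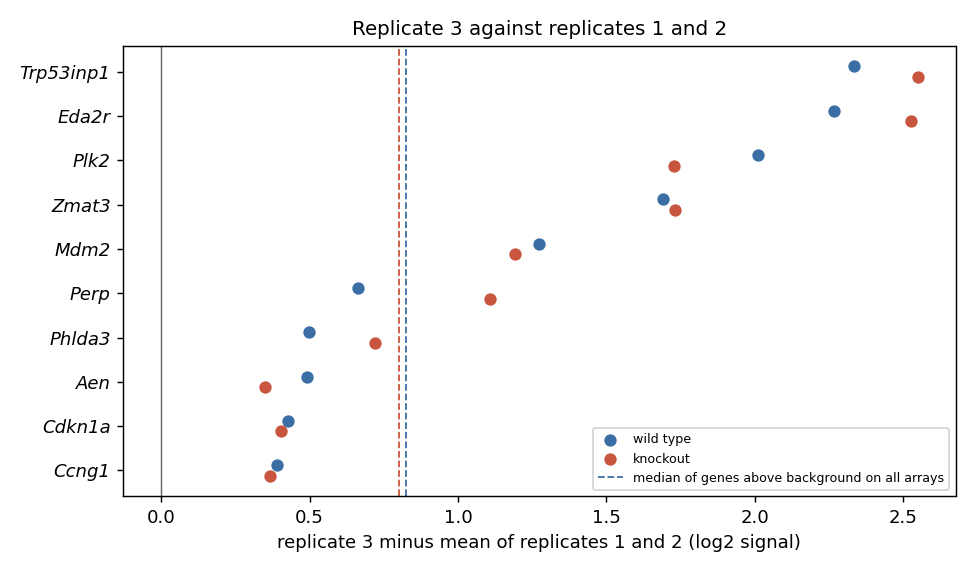
Log2 signal of replicate 3 minus the mean of replicates 1 and 2 (horizontal axis) for each member in wild type (blue) and knockout (red); dashed lines are the medians of the 8404 genes above background on all arrays (0.83 and 0.80). All points lie right of 0, from 0.35 for Aen in the knockout to 2.55 for Trp53inp1 in the knockout, and the colours lie close together for each gene compared with the spread between genes.

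In a wider list of p53 targets no gene was called. So few genes were called at all that nothing about the list is read from this, and the list was not tested as a set. Of 36 further targets listed, 30 had a usable probe set and 26 lay above background on at least 3 arrays. With the replicate block, limma called 0 of the 30 in either direction at an adjusted p of 0.05 (0.0766% of all genes were called), and 2 were higher and 0 lower at an unadjusted p under 0.05, beside 3.28% and 3.45% of all genes. Without the block 0 were called and 0 had an unadjusted p under 0.05 (0.0676% of all genes had). Of the 30, 5 were higher and 5 lower in all 3 pairs, and their median difference was 0.06, with pair medians of 0.01, -0.10 and 0.09; 13.8% of all genes were higher and 13.8% lower in all 3 pairs. With the block, that median was 0.02 without the replicate 1 pair, 0.08 without replicate 2 and -0.0001 without replicate 3. The mean differences of the list ran from -0.17 to 0.34. That of Mdm2 lay beyond this range, but Mdm2 was chosen for its difference in this contrast, so nothing is read from this.

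The 3 list members with the smallest p in limma's fit with the block were all above 0. Tnfrsf10b, the mouse TRAIL death receptor, was at 7.57, 7.84 and 9.36 in wild type and at 8.20, 7.97 and 9.61 in the knockout (mean difference 0.34, SE 0.11, limma adjusted p = 0.607). As for Plk2, the replicate 1 pair differed most, by 0.63, against 0.13 and 0.25 in the others. Abhd4, a lipid hydrolase, differed by 0.11, 0.27 and 0.36 (limma adjusted p = 0.689), and Psrc1, a protein of the mitotic spindle, by 0.17, 0.20 and 0.22 (limma adjusted p = 0.752). The core apoptosis gene Bbc3, named after its values were seen, differed by 0.23, 0.10 and 0.09 and was above background on 2 of 6 arrays, those of replicate 3.

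Among genes that act on p53 none was called either, and for the same reason nothing is read from that count. Of 29 regulators listed, 26 had a usable probe set and 17 lay above background on at least 3 arrays. Trp53 itself was not analysed here. With the block limma called 0 of the 26, beside 0.0766% of all genes. At an unadjusted p under 0.05 in that fit 2 were higher and 1 lower, beside 3.28% and 3.45% of all genes. The median difference of the 26 was 0.00, and that of the 17 above background was -0.03. Of the 26, 5 were higher and 4 lower in all 3 pairs, beside 13.8% of all genes each way. The smallest p belonged to Rpl5, a ribosomal protein that binds Mdm2 and restrains it (differences of 0.60, 0.26 and 0.29, limma adjusted p = 0.451). Rpl5 was above background only on the replicate 3 arrays, and since ribosomal protein genes have near-identical pseudogenes, its value is uncertain. Hipk2, a kinase that phosphorylates p53, was at 6.82, 7.02 and 8.47 in wild type and at 7.24, 7.23 and 8.84 in the knockout (mean difference 0.33, SE 0.09, limma adjusted p = 0.484). Trim24, a ubiquitin ligase for p53, differed by -0.21, -0.33 and -0.15 (limma adjusted p = 0.692). Mdm4, the relative of Mdm2 that also restrains p53 and was named after its values were seen, differed by -0.15, -0.39 and -0.03 and was above background only on replicate 3.

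**Figure D4:**
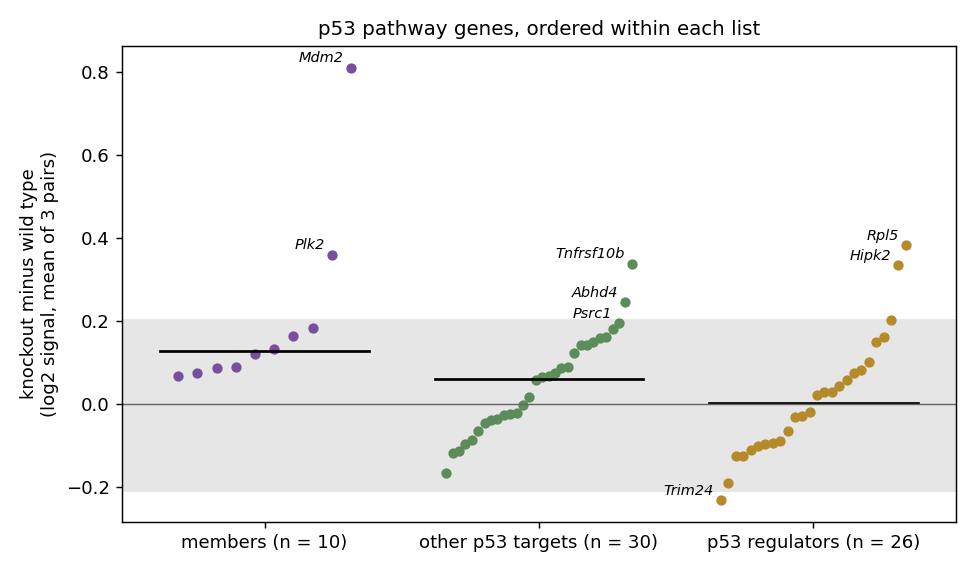
Mean knockout minus wild type difference in log2 signal (vertical axis) of the 10 members, 30 other p53 targets and 26 p53 regulators, each point 1 gene ordered by value; black bars are list medians (0.13, 0.06 and 0.00) and the grey band spans the 5th to 95th percentile of all genes. Mdm2 at 0.81, chosen for its difference in this contrast, stands above every other point, the next being Rpl5 at 0.38 and Plk2 at 0.36.

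Of the 10 genes tested beside Mdm2 on the chromosome, 0 were higher and 3 lower in all 3 pairs, beside 13.8% of all genes each way. With only 10 genes, nothing is read from these counts or those that follow. The 5 tested genes on either side in the RefSeq gene order had mean differences from -0.41 (Lyz2) to 0.23 (Cpm). With the block limma called 0 of these 10, beside 0.0766% of all genes. At an unadjusted p under 0.05 in that fit 2 were lower, beside 3.45% of all genes. Only 5 of the 10 lay above background on at least 3 arrays: Cpsf6, Cpm, Slc35e3, Nup107 and Rap1b. The nearest of them, the carboxypeptidase gene Cpm, differed by 0.10, -0.14 and 0.73, and Slc35e3, on the other side, by 0.68, 0.12 and -0.14. The mRNA processing factor Cpsf6 differed by -0.16, -0.68 and -0.36.

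The genes with a proper name whose pair differences lay closest to those of Mdm2 were not among the p53 targets listed. By Euclidean distance over the 3 pairs they were the platelet chemokine gene Ppbp (1.24, 0.74 and 0.63), the annexin Anxa1 (0.73, 0.51 and 0.72), the AP-1 subunit Fosb (0.82, 0.38 and 0.72), Ttc9 (0.61, 0.77 and 0.69) and Specc1 (0.66, 0.49 and 0.53). All 5 were above background on all 6 arrays. Of the 22179 other genes, those without a proper name were passed over for these 5. Such names are Gm numbers, Rik names, pseudogenes, and smell and pheromone receptors, among others. The ranks given above for Plk2, Ccng1 and Cdkn1a count all genes. The likeness covers 3 pairs of arrays, and whether it exceeds what such a search finds by chance was not tested.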

How the data were processed

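Total RNA of 6 samples was hybridized to Affymetrix arrays. Each deposited value is the log2 signal of 1 probe set on 1 array; Partek and RMA (background correction, normalization and summary of probes) are the tools named in the submitters' processing notes. Versions, settings and a build were not given in the sources used here. That the logs are to base 2 follows from the values' range. Of 41345 probe sets, 23521 name 1 gene in the platform annotation. Where a gene had several, that of the highest mean signal over the 6 arrays was used, which left 22180 genes. No filter was applied. limma 3.58.1 (R 4.3.3; lmFit, eBayes, two-sided) was fitted over all genes with genotype as the only term, with Benjamini-Hochberg adjustment at 0.05. Deviations of equal-numbered arrays from their genotype means correlated at 0.920, 0.895 and 0.973, above the bound of 0.1, so a block for the replicate number was also fitted. The pairing comes from the data, and rests on replicate 3: replicates 1 and 2 of opposite genotype correlated at 0.898 and 0.910. The fit was tested on simulated data. Members, lists and tests were chosen with earlier results of these data known. Named were all members, the 3 smallest p per list (none passed the threshold), the 5 properly named genes closest to Mdm2 and the 10 neighbours of Mdm2. Others are said to be chosen after their values were seen. The number of arrays limits the precision. Alternatives were other blocks, normalizations, a background filter, probe set means, a trended prior and left-out arrays. Promoters came from RefSeq.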

Additional observations from a re-analysis of the deposited data

How the results depend on the processing

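Without a block, limma called 0 genes higher and 0 lower; this held with quantile normalization, median centring, the background filter, probe set means and each single array left out. With the replicate block it called 2 genes higher and 15 lower, with the batch block (replicates 1 and 2 against 3) 2 and 17. With the replicate block together with another change the counts were 3 and 12 (quantile normalization), 2 and 16 (median centring), 7 and 35 (background filter), 2 and 14 (probe set means) and 9 and 37 (trended, robust prior). Without the replicate 1, 2 or 3 pair they were 24 and 74, 0 and 2, and 0 and 4; replicates 1 and 2 alone, without a block (added after the data were seen), gave 0 and 1. The other p53 targets and the regulators had 0 calls under all 21 alternatives.

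The median difference of the 10 members, 0.13, was 0.12 to 0.13 in the alternatives that kept all arrays. With 1 array left out it ran from -0.18 to 0.47 (0.12, and -0.22 to 0.31, for the 9 members besides Mdm2; 0.06, and -0.32 to 0.39, for the other p53 targets). Both extremes fall to the replicate 3 arrays, and the genotypes then hold unequal shares of them. With the block and a pair left out, the median of the 9 was 0.14, 0.17 and 0.061 without replicates 1, 2 and 3, and replicates 1 and 2 alone without a block gave 0.061. Mdm2, Cdkn1a and Ccng1 stayed above 0 under all 21 alternatives; the other 7 fell below 0 with some array left out, Perp also without the replicate 3 pair (-0.06) and Aen without the replicate 2 pair (-0.002). The number of arrays and the signals of Eda2r, Perp and Trp53inp1 near background limit these values.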
